A study of Mus musculus with 36 samples.

Results

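Ppard encodes the nuclear receptor PPAR delta, a transcription factor that is switched on by fatty acids. It was examined in mouse kidney together with 9 other genes for regulators of fuel metabolism, namely Ppara, Ppargc1a, Ppargc1b, Rxra, Esrra, Hnf4a, Crtc2, Sirt1 and Klf15. The 10 genes were taken by symbol from the 53715 genes counted in each library, and all 10 were among the 15637 genes that passed a filter on low counts. Ppard was chosen because of its large difference between genotypes and the smaller size of that difference in diabetic mice, so its values are given as a description without a test. The other 9 were chosen for their function, with earlier results of these data known.

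Messenger RNA was sequenced from whole kidneys of 36 mice in 4 groups of 9. In all 4 groups both copies of Bmal1 (symbol Arntl) carried loxP sites and all mice drank doxycycline at 2 mg/ml for 2 weeks from 8 weeks of age. The STZ-cKOt group (Bmal1 lox/lox, Pax8-rtTA, LC1) had lost BMAL1 in the renal tubule and received streptozotocin (STZ), which destroys insulin-producing cells and causes diabetes. The PBS-cKOt group had the same genotype and received the vehicle, phosphate-buffered saline (PBS). The STZ-control group were littermates with Bmal1 lox/lox alone that received STZ, and the PBS-control group were such littermates that received PBS. STZ was given at 50 mg/kg on each of 5 days, starting 1 week after doxycycline. Kidneys were collected at zeitgeber time 9, counted in hours from lights on, when 8 weeks had passed since the injections ended. Pax8-rtTA directs the doxycycline-dependent Cre recombinase of LC1 to the epithelium of the renal tubule, so the other cells of the kidney kept the floxed gene. The sex of the mice was not given in the sources used here.

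PPAR delta and PPAR alpha bind DNA as pairs with retinoid X receptors and switch on genes for the uptake and oxidation of fatty acids. The proximal tubule, the main cell mass of the kidney cortex, meets its energy demand largely by oxidising fatty acids. PGC-1 alpha and PGC-1 beta are coactivators that dock on these receptors and on the estrogen-related receptor ERR alpha to drive mitochondrial genes. HNF4 alpha maintains proximal tubule identity, CRTC2 carries the cAMP signal to gluconeogenic genes, SIRT1 is a deacetylase that needs NAD, and KLF15 is a glucocorticoid-induced factor of amino acid and glucose metabolism. BMAL1 binds the E-box sequence CACGTG with its partner CLOCK, which is why the promoters of 3 members are shown next.

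Promoter windows from RefSeq (build GRCm38.p6), 250 bases before to 50 bases after a start site, were found for 8 of the 10 members, 10 windows in all. The Ppard window is chr17:28232504-28232803 on the plus strand, that of Klf15 is chr6:90462326-90462625 on the plus strand, and that of Sirt1 is chr10:63338986-63339285 on the minus strand. Each is printed along the strand of its gene, with capitals for matches, on either strand, to the E-box CACGTG or the GC box GGGCGG, 2 of which overlap in Sirt1. They are shown because Ppard had the largest genotype difference of the members and because Klf15 and Sirt1 were the only members with a window that held CACGTG.
Ppard: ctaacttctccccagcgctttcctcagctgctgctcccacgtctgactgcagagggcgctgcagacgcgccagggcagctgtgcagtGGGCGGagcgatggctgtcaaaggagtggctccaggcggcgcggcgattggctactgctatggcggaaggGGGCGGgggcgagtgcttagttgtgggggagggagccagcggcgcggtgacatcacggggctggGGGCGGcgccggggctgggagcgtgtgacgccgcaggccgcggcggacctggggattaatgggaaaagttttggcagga
Klf15: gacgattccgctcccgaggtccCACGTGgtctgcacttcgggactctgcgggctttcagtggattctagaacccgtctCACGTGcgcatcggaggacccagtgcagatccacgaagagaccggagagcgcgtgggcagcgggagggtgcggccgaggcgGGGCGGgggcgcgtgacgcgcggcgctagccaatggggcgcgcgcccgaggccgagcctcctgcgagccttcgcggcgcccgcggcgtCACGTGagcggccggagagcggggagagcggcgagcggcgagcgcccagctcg
Sirt1: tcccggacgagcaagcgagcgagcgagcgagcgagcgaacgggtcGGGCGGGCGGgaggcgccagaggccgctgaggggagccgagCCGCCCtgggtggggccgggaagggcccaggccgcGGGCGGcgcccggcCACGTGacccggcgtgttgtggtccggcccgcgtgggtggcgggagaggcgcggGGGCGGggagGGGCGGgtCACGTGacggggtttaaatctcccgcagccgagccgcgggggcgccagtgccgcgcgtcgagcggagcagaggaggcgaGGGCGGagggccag
The Klf15 window holds CACGTG at −228, −172 and −3 from the start site, and the Sirt1 window at −115 and −43, counted to the first base of the match. Of all 32851 windows of this length in the table, 7.15% hold CACGTG and 35.7% hold GGGCGG. The Ppard window holds GGGCGG at −163, −93 and −29. The half-site AGGTCA, the D-box forms TTATGTAA and TTACGTAA and the cAMP response element TGACGTCA were also searched on both strands, and are held by 16.3%, 1.06% and 1.79% of all windows. Among the member windows searched, these letters were found only in 1 of the 2 Rxra windows, as AGGTCA at −87 and −48. A match describes the letters and no binding was measured.

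Each library had between 16.9 and 22.3 M reads assigned to genes, and levels are counts per M assigned reads (CPM), scaled by the TMM method. Proximal tubule markers summed to between 9667 and 15517 CPM per library, and none of the 10 was at 0 in all libraries of a group. Arntl, counted over the whole gene and so no check of the deletion itself, stood at 12.9 to 17.4 CPM in the 18 cKOt libraries and at 1.09 to 2.64 CPM in 17 of the 18 control libraries. The library labelled STZ-control 2 went against this at 13.4 CPM, and its Ciart, a clock repressor gene, stood at 1.95 CPM where the other 8 STZ-control libraries had 18.2 to 32.5 CPM. Another 4 libraries (PBS-cKOt 1 and 3, STZ-control 7 and 8) stood apart on the second principal component and had the lowest slopes of log2 CPM on log2 exon length, −0.170 to −0.0753. All are kept below, with the values without them beside each call they change and beside the main moves in value. In whole kidney, fewer cells of a type and less RNA per cell cannot be told apart.

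Ppard (ENSMUSG00000002250, chromosome 17, 28232700 to 28301474, GRCm38) was high in kidneys without tubular BMAL1 and low in control kidneys. Across libraries its lowest, median and highest levels were 45.9, 65.1 and 99.3 CPM in STZ-cKOt, 84.4, 112 and 146 CPM in PBS-cKOt, 11.0, 13.3 and 17.5 CPM in STZ-control, and 9.34, 13.7 and 14.5 CPM in PBS-control. Every cKOt library lay above every control library, and the lowest of them had 878 reads of Ppard where the highest control library had 385. The difference of PBS-cKOt from PBS-control was 3.12 ± 0.13 on the log2 scale (± SE), a fitted level 8.71-fold higher. That of STZ-cKOt from STZ-control was 2.27 ± 0.12, a fitted level 4.81-fold higher.

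Among cKOt kidneys Ppard was lower with STZ, and among control kidneys the 2 treatments overlapped. STZ-cKOt differed from PBS-cKOt by −0.80 ± 0.12, so that its mean was 57.5% of the PBS-cKOt mean, and 8 of its 9 libraries lay below the lowest PBS-cKOt library. The exception was STZ-cKOt 6 at 99.3 CPM. STZ-control differed from PBS-control by 0.06 ± 0.13 (95% interval −0.20 to 0.32). The interaction, the STZ effect in cKOt minus that in control mice, was −0.86 ± 0.17. Across 10 other ways of processing the data the interaction lay between −0.90 and −0.80. Across 11 the genotype difference lay between 3.11 and 3.14 in PBS mice and between 2.24 and 2.32 in STZ mice. The library labelled STZ-control 2 had the highest Ppard of its group, 17.5 CPM, which is a control-like level although its Arntl was not. Without that library the STZ difference in control mice was 0.01.

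**Figure D1:**
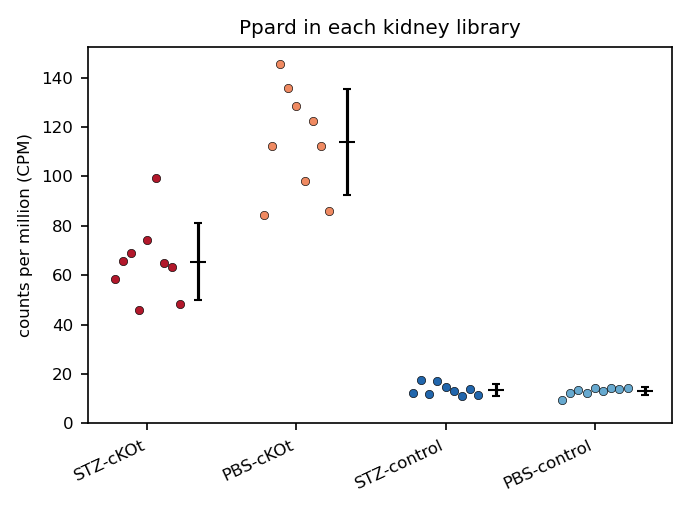
Ppard in each of 36 kidney libraries, in CPM on a linear axis from 0, by group; each point is 1 mouse and the bar beside it is the mean ± SD (n = 9). STZ-cKOt libraries lie between 45.9 and 99.3 CPM and PBS-cKOt libraries between 84.4 and 146 CPM, all above the highest control library at 17.5 CPM.

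The other 9 regulators each differed by under 1 on the log2 scale in these comparisons. Between PBS-cKOt and PBS-control 4 of the 9 were called at an adjusted p under 0.05, all of them lower (Ppargc1b, Rxra, Esrra and Klf15), where 23.4% of all 15637 tested genes were called and 12.5% were called lower. Their median log2 difference was −0.25, and that of all tested genes 0.00. Between STZ-cKOt and STZ-control 4 of the 9 were called, Ppargc1b, Esrra and Klf15 lower and Ppargc1a higher, where 19.6% of all genes were called, 9.52% higher and 10.1% lower. The median of the 9 was −0.13 and that of all genes −0.01. One gene of the 9, Rxra, had groups that did not overlap in PBS mice, where 5.12% of all genes did not overlap, 2.4% higher and 2.72% lower. In STZ mice 0 of the 9 did, where 3.5% of all genes did not overlap, 1.86% higher and 1.64% lower. The 2 genotype comparisons share no library, and 3 genes, Ppargc1b, Esrra and Klf15, were called lower in both, where 5.81% of all genes were. Esrra and Klf15 each lost the call in STZ mice in 3 of 11 alternatives.

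In the treatment comparison of control mice Rxra and Hnf4a were called lower, 2 of 9, where 12.3% of all genes were called, 6.34% higher and 5.93% lower, and the median of the 9 was −0.19 against 0.00 for all genes. In cKOt mice Hnf4a was called lower, 1 of 9, where 11.6% of all genes were called, 6% higher and 5.63% lower, and the median was −0.03 against 0.00. The groups of 0 of the 9 lay apart in either treatment comparison. Among all genes 1.22% did so in control mice, 0.742% higher and 0.48% lower, and 0.876% in cKOt mice, 0.454% higher and 0.422% lower. For the interaction 0 of the 9 were called by edgeR's quasi-likelihood test, 0 by DESeq2 and 0 by limma voom, where edgeR called 0.0448% of all genes. At an unadjusted p under 0.05 there were 2 of the 9, where 12.4% of all genes were, namely Rxra at 0.21 ± 0.10 (edgeR adjusted p = 0.39) and Ppargc1a at 0.28 ± 0.12 (edgeR adjusted p = 0.373). These were 0.08 and 0.13 without the 4 libraries that stood apart (adjusted p = 0.983 for both). The comparison of genotypes in PBS mice and that of treatments in control mice share the PBS-control libraries.

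**Figure D2:**
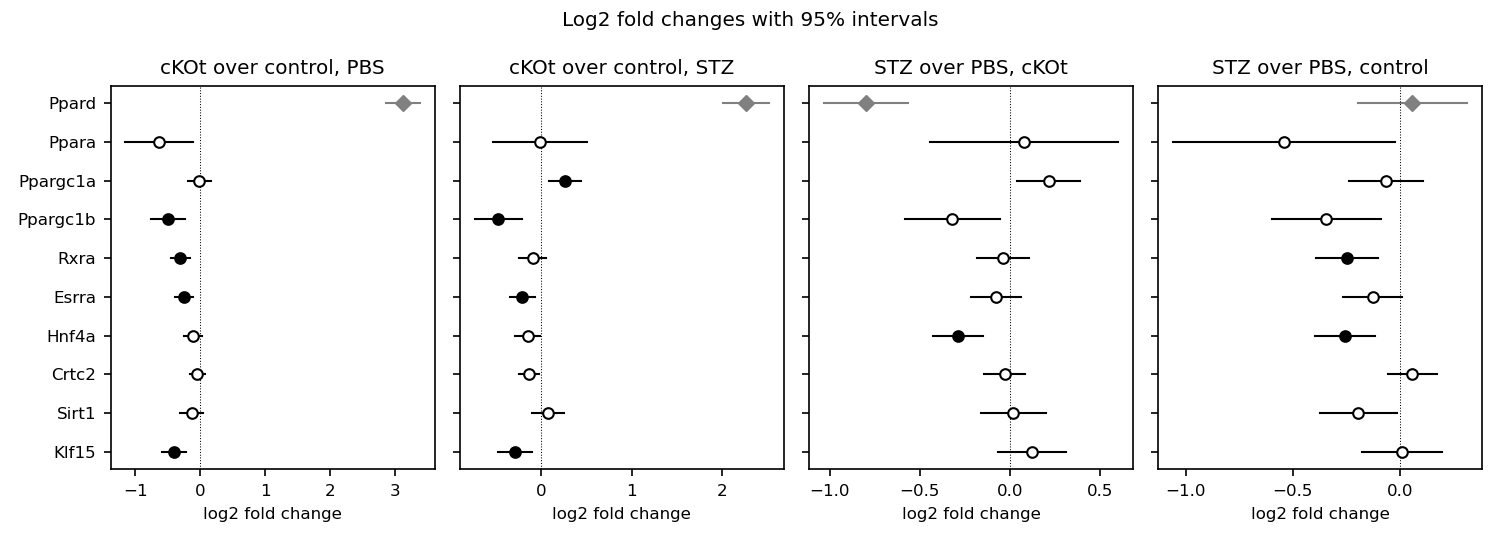
Log2 fold changes (horizontal axes, one scale per panel) of the 10 genes in 4 comparisons, with 95% intervals as lines. Filled circles have an edgeR adjusted p under 0.05, open circles do not, and grey diamonds mark Ppard, which was chosen on these comparisons and not tested. Ppard stands at 3.12 and 2.27 in the genotype panels, and every other gene lies within 1 of 0.

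Among the receptors, Ppara (ENSMUSG00000022383, chromosome 15, 85734983 to 85802819) is the PPAR that drives fatty acid oxidation in liver and proximal tubule. In CPM per library it stood, lowest, median and highest, at 21.2, 41.5 and 56.1 CPM in STZ-cKOt, 10.2, 45.7 and 58.8 CPM in PBS-cKOt, 9.82, 47.9 and 61.5 CPM in STZ-control, and 39.5, 63.7 and 76.6 CPM in PBS-control. The groups overlap, and PBS-control is the only one with no library under 39.5 CPM. The difference of PBS-cKOt from PBS-control was −0.63 ± 0.26 and did not pass the threshold (95% interval −1.15 to −0.11, edgeR adjusted p = 0.0719), and that of STZ-cKOt from STZ-control was −0.01 (−0.53 to 0.51, adjusted p = 0.987). STZ-control differed from PBS-control by −0.54 ± 0.26 (adjusted p = 0.168) and STZ-cKOt from PBS-cKOt by 0.08 ± 0.26 (adjusted p = 0.898). With the 4 libraries that stood apart left out, the genotype difference in STZ mice was −0.26 (adjusted p = 0.305) and the STZ difference was −0.27 in control mice (adjusted p = 0.363).

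The spread of Ppara within groups went with the length slope of the library. The 3 lowest levels, 9.82 CPM in STZ-control 7, 10.2 CPM in PBS-cKOt 1 and 14.9 CPM in STZ-control 8, came from the 3 libraries with the lowest slopes, −0.144, −0.170 and −0.0795. With the slope as a covariate the PBS difference was −0.47 ± 0.15 and passed the threshold (edgeR adjusted p = 0.0184), and it did so with limma voom and quality weights at −0.52 (adjusted p = 0.0405). Without the 4 libraries that stood apart it was −0.45 (adjusted p = 0.0588), and over all settings its adjusted p ran from 0.0184 to 0.108. The Ppara call in PBS mice thus passed the threshold in 2 of 11 alternatives.

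**Figure D3:**
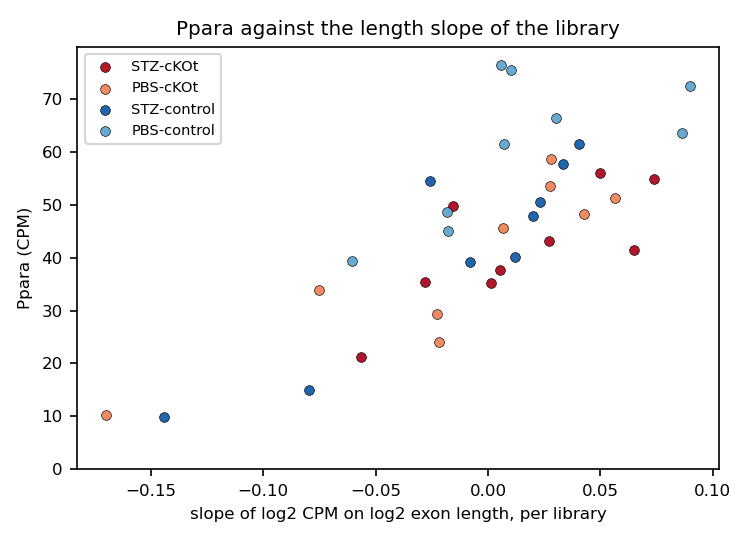
Ppara level (CPM, linear axis from 0) against the slope of log2 CPM on log2 exon length of the same library; each point is 1 of 36 mice, coloured by group. The 3 libraries with the lowest slopes hold the 3 lowest Ppara levels, 9.82, 10.2 and 14.9 CPM.

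Rxra (ENSMUSG00000015846, chromosome 2, 27676440 to 27762957) encodes the retinoid X receptor that pairs with both PPARs. The lowest, median and highest levels of Rxra were 92.1, 118 and 131 CPM in STZ-cKOt, 96.7, 125 and 130.3 CPM in PBS-cKOt, 100.2, 129 and 143 CPM in STZ-control, and 132, 151 and 163 CPM in PBS-control. All 9 PBS-cKOt libraries lay below all 9 PBS-control libraries. The difference was −0.30 ± 0.07 (edgeR adjusted p = 0.00143), a level 19.0% lower. Summed proximal tubule markers moved with it, at 10206 to 14151 CPM in PBS-cKOt and 13425 to 15517 CPM in PBS-control. Of the 10 markers 4 were called lower and 0 higher, where 12.5% of all genes were lower and 10.9% higher. The part of these markers in the result was not tested. Rxra was also lower in STZ-control than in PBS-control, by −0.25 ± 0.07 (edgeR adjusted p = 0.018). That call was lost without the 4 libraries (−0.17, adjusted p = 0.0942) and with no filter on low counts (adjusted p = 0.0509). STZ-cKOt differed from STZ-control by −0.09 (95% interval −0.24 to 0.05), or by −0.16 without the 4 libraries (adjusted p = 0.0668), and from PBS-cKOt by −0.04 (−0.18 to 0.11).

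Esrra (ENSMUSG00000024955, chromosome 19, 6910977 to 6921813) encodes ERR alpha, an orphan receptor that switches on genes of oxidative metabolism. For Esrra the lowest, median and highest levels were 52.4, 74.1 and 80.2 CPM in STZ-cKOt, 63.5, 76.7 and 83.6 CPM in PBS-cKOt, 67.4, 85.7 and 94.3 CPM in STZ-control, and 76.4, 94.2 and 96.5 CPM in PBS-control. It fell by 0.25 ± 0.07 in PBS-cKOt against PBS-control (edgeR adjusted p = 0.00534) and by 0.21 ± 0.07 in STZ-cKOt against STZ-control (adjusted p = 0.0285), with overlap in both pairs. The call in STZ mice was lost without the 4 libraries (−0.19, adjusted p = 0.0723), with no filter (adjusted p = 0.0761) and in a fit to these 2 groups alone (adjusted p = 0.0756). Trmt112, at 9.48 CPM on average, overlaps Esrra on the other strand and was not called in PBS mice (0.14, adjusted p = 0.322).

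Hnf4a (ENSMUSG00000017950, chromosome 2, 163506808 to 163572910) was the member with the most reads, and it fell with STZ in both genotypes. Hnf4a had lowest, median and highest levels of 529.8, 655 and 737 CPM in STZ-cKOt, 677, 799.8 and 882 CPM in PBS-cKOt, 600.0, 669 and 865 CPM in STZ-control, and 812, 841 and 888 CPM in PBS-control. The STZ difference was −0.29 ± 0.07 in cKOt mice (edgeR adjusted p = 0.00439) and −0.26 ± 0.07 in control mice (adjusted p = 0.0115). In cKOt mice 6 of 9 STZ libraries lay below every PBS library, and in control mice 7 of 9. The coefficient of variation was 14.7% in STZ-control and 3.36% in PBS-control, the tightest group. In STZ-control the libraries spread from 600.0 to 865 CPM, with the widest gaps from 669 to 736 CPM and from 736 to 809 CPM. Without the 4 libraries the call in control mice was lost (−0.22, adjusted p = 0.0539), and that in cKOt mice was not (−0.31, adjusted p = 0.00395).

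The genotype difference of Hnf4a did not pass the threshold in PBS mice (−0.11, 95% interval −0.25 to 0.03, edgeR adjusted p = 0.241) or in STZ mice (−0.15, −0.29 to −0.01, adjusted p = 0.136). With the length slope as a covariate it passed in STZ mice (−0.17, adjusted p = 0.0472). The antisense gene Hnf4aos overlaps Hnf4a and stood at 9.08 CPM on average. Whether the authors' counting used strand was not given, so reads of overlapping genes may not be told apart.

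Of the coactivators, Ppargc1a (ENSMUSG00000029167, chromosome 5, 51454250 to 51567726), the gene of PGC-1 alpha, was the one tested member called higher in any comparison. The lowest, median and highest levels of Ppargc1a were 90.4, 113 and 118 CPM in STZ-cKOt, 69.9, 97.2 and 107 CPM in PBS-cKOt, 73.7, 88.5 and 115 CPM in STZ-control, and 78.1, 90.6 and 109 CPM in PBS-control. STZ-cKOt was higher than STZ-control by 0.27 ± 0.09 (edgeR adjusted p = 0.0229), a level 20.3% higher, with 3 of 9 libraries above all of STZ-control. STZ-control 7 and 8, at 73.7 and 75.3 CPM, were the lowest of their group. Without the 4 libraries that include them the difference was 0.20 and not called (adjusted p = 0.0602), and with the length slope as a covariate it was 0.20 and called (adjusted p = 0.00845). In PBS mice the genotypes differed by −0.01 (95% interval −0.19 to 0.16). STZ-cKOt exceeded PBS-cKOt by 0.21 (0.04 to 0.39, adjusted p = 0.0989).

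Ppargc1b (ENSMUSG00000033871, chromosome 18, 61298136 to 61400431), the gene of PGC-1 beta, was the least abundant member and the one with the largest called difference. Levels of Ppargc1b, lowest, median and highest, were 2.51, 3.85 and 4.90 CPM in STZ-cKOt, 2.69, 4.97 and 6.28 CPM in PBS-cKOt, 4.31, 5.41 and 6.48 CPM in STZ-control, and 5.82, 6.23 and 9.93 CPM in PBS-control. These rest on 48 to 192 reads per library. It fell by 0.49 ± 0.13 in PBS-cKOt against PBS-control (edgeR adjusted p = 0.00342) and by 0.47 ± 0.13 in STZ-cKOt against STZ-control (adjusted p = 0.00744), and kept both calls in all 11 alternatives. Without the 4 libraries that stood apart these differences were −0.36 (adjusted p = 0.0228) and −0.48 (adjusted p = 0.00323). In PBS mice 8 of 9 cKOt libraries lay below every control library, and in STZ mice 7 of 9. The STZ differences were −0.32 ± 0.13 in cKOt mice (adjusted p = 0.106) and −0.35 ± 0.13 in control mice (adjusted p = 0.066). In control mice the difference passed the threshold in 4 of 11 alternatives. In cKOt mice it did so in 2 of 11, at −0.44 without the 4 libraries (adjusted p = 0.0135) and at −0.38 with the length slope as a covariate (adjusted p = 0.0166).

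Crtc2 (ENSMUSG00000027936, chromosome 3, 90254163 to 90264125), the coactivator of CREB, was not called in any comparison of the full fit. Crtc2 had lowest, median and highest levels of 27.2, 31.1 and 36.9 CPM in STZ-cKOt, 28.6, 32.3 and 34.9 CPM in PBS-cKOt, 31.3, 33.7 and 40.6 CPM in STZ-control, and 29.3, 32.7 and 37.0 CPM in PBS-control. The difference farthest from 0 was that of STZ-cKOt from STZ-control, −0.13 (95% interval −0.25 to −0.02, edgeR adjusted p = 0.0958). It was −0.08 without the 4 libraries (adjusted p = 0.343), and was called in 1 of 11 alternatives, the replicate block (−0.13, adjusted p = 0.0363). The interval of the PBS genotype difference, −0.16 to 0.07, was the narrowest of the 9.

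Sirt1 (ENSMUSG00000020063, chromosome 10, 63319005 to 63381704), whose window above holds CACGTG at 2 positions, was not called in any comparison either. Sirt1 stood, lowest, median and highest, at 25.1, 29.1 and 40.7 CPM in STZ-cKOt, 23.5, 29.5 and 34.1 CPM in PBS-cKOt, 21.97, 28.5 and 36.3 CPM in STZ-control, and 27.8, 34.1 and 38.4 CPM in PBS-control. The genotype difference was −0.13 in PBS mice (95% interval −0.31 to 0.05) and 0.08 in STZ mice (−0.10 to 0.26). STZ-control differed from PBS-control by −0.19 (−0.37 to −0.01, edgeR adjusted p = 0.154).

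Klf15 (ENSMUSG00000030087, chromosome 6, 90462576 to 90475238), with CACGTG at 3 positions in its window, fell in cKOt kidneys under both treatments. For Klf15 the lowest, median and highest levels were 48.7, 65.4 and 82.1 CPM in STZ-cKOt, 49.9, 60.5 and 73.5 CPM in PBS-cKOt, 54.0, 81.3 and 93.3 CPM in STZ-control, and 70.6, 75.0 and 90.1 CPM in PBS-control. PBS-cKOt was lower by −0.40 ± 0.09 (edgeR adjusted p = 0.00119), with 8 of 9 libraries below every PBS-control library and only PBS-cKOt 3 among them. STZ-cKOt was lower than STZ-control by −0.29 ± 0.09 (adjusted p = 0.0229). The lowest STZ-control library, at 54.0 CPM where the next had 71.5 CPM, was the one labelled STZ-control 2, and without it the difference was −0.34 (adjusted p = 0.00328). Without the 4 libraries the STZ call was lost (−0.25, adjusted p = 0.0641), as it was with limma voom (adjusted p = 0.0549) and in a fit to the 2 groups alone (adjusted p = 0.0655). STZ itself left Klf15 uncalled, at 0.12 in cKOt mice (95% interval −0.07 to 0.31) and 0.01 in control mice (−0.18 to 0.19).

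**Figure D4:**
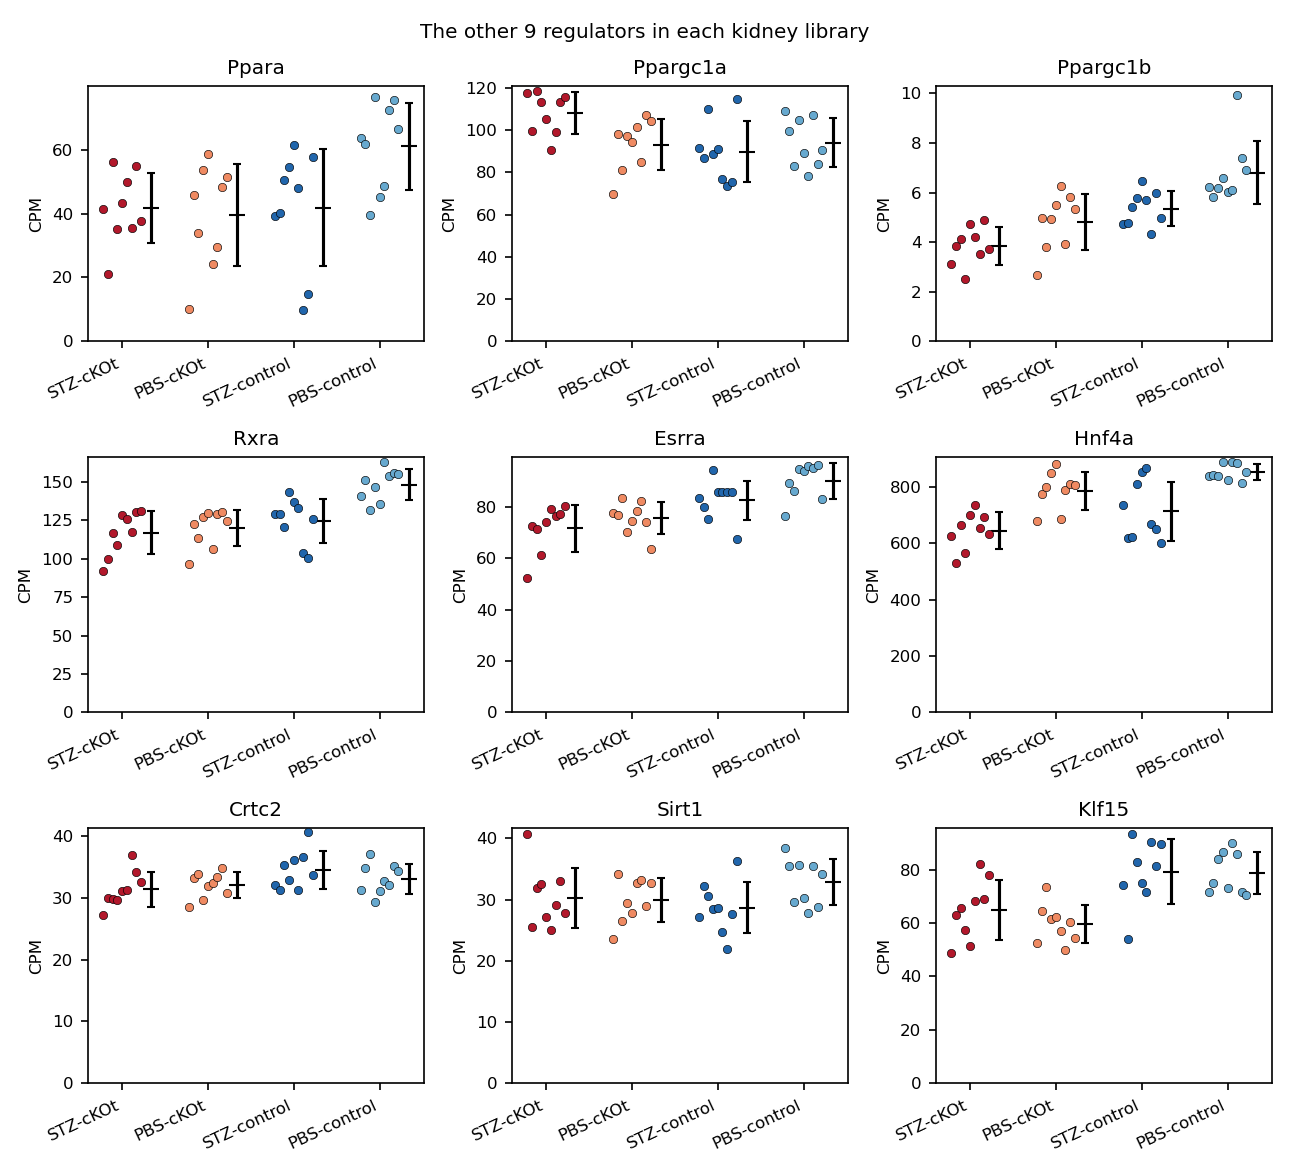
Levels of the other 9 regulators in each of 36 kidney libraries (CPM, linear axes from 0, one scale per panel), by group; each point is 1 mouse and the bar beside it is the mean ± SD (n = 9). Rxra in PBS-cKOt lies wholly below PBS-control, Ppara has 3 libraries at 9.82 to 14.9 CPM, and the groups of Crtc2 and Sirt1 overlap.

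Levels were put in order per length, as CPM per kb of exon. Hnf4a led in all 4 groups, at 133 ± 13.5 in STZ-cKOt, 163 ± 14.0 in PBS-cKOt, 148 ± 21.7 in STZ-control and 176 ± 5.92 CPM per kb in PBS-control (mean ± SD, n = 9 each), with no overlap with the next gene. Klf15, Rxra, Esrra, Ppargc1a and Ppara followed between 10.3 and 28.3 CPM per kb, and most neighbours in that order overlapped. Crtc2 and Sirt1 lay lower, between 5.37 and 8.41 CPM per kb. Ppargc1b was last in every group, at 0.966 to 1.70 CPM per kb.

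Ppard changed its place in this order between genotypes. It ranked 7 of 10 in STZ-cKOt at 8.71 ± 2.09 CPM per kb and 5 of 10 in PBS-cKOt at 15.2 ± 2.85, where it overlapped Esrra above it and Ppargc1a below it. In both control groups it ranked 9 of 10, at 1.81 ± 0.317 in STZ-control and 1.74 ± 0.218 CPM per kb in PBS-control, below every library of Sirt1 and overlapping Ppargc1b. The PBS-cKOt means of Ppard and Ppara were 15.2 and 10.3 CPM per kb, and libraries of both genes overlapped there. In PBS-control the same means were 1.74 and 15.9 CPM per kb.

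The genes with group differences most like those of Ppard were sought among 13808 tested genes with a mean of at least 1 CPM. Likeness was the root mean square difference over the log2 differences of STZ-cKOt, PBS-cKOt and STZ-control from PBS-control, which stood at 2.32, 3.12 and 0.06 for Ppard. The nearest was the collagen gene Col6a6 at a distance of 0.22, with differences of 2.37, 3.17 and −0.32. Next came the peroxisomal hydroxyacid oxidase gene Hao2 at 0.39 and the arginase gene Arg2 at 0.40, followed by the clock repressor gene Cry1 at 0.43. Ypel2, Lingo4, the prolactin receptor gene Prlr, Rnf125, Arntl and the proton pump gene Atp12a completed the 10, at 0.44 to 0.56. Arntl is the floxed gene itself, and its STZ-control difference of 0.77 includes the library labelled STZ-control 2. That library had 13.4 CPM of Arntl where the rest of its group had 1.18 to 2.64 CPM. As for Ppard, the STZ-cKOt difference of Prlr, 2.06, was below its PBS-cKOt difference of 2.39. In Hao2, at 2.90 and 2.94, and in Arg2, at 2.68 and 2.68, the STZ-cKOt and PBS-cKOt differences were close. These genes were picked for this pattern, so it is a description.

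Near Ppard on chromosome 17, 17 tested genes start within 500 kb of its start. In PBS-cKOt 5 of them were called higher than in PBS-control and 2 lower, where 10.9% of all genes were called higher and 12.5% lower. The 5 were Scube3, a secreted signalling protein gene (1.13 ± 0.12, edgeR adjusted p = 7.18e-10), Def6, which encodes an activator of small GTPases (0.59 ± 0.14, adjusted p = 0.00218), Fance, a Fanconi anaemia DNA repair gene (0.44 ± 0.08, adjusted p = 9.32e-05), the ribosomal protein gene Rpl10a (0.34 ± 0.10, adjusted p = 0.0118) and Zfp523 (0.21 ± 0.07, adjusted p = 0.0333). They are the 5 tested genes nearest to Ppard, with starts from 90.6 kb before to 95.8 kb after its start, a feature seen after the values were known. The 2 called lower were D17Wsu92e at −0.23 ± 0.05 (adjusted p = 0.000203) and Mapk14, the p38 kinase gene at 459 kb, at −0.22 ± 0.05 (adjusted p = 0.00192).

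In STZ mice 2 of the 17 were called higher in cKOt, Scube3 at 0.93 ± 0.12 (edgeR adjusted p = 1.3e-07) and Def6 at 0.40 ± 0.14 (adjusted p = 0.0367), and 2 lower, where 9.52% of all genes were higher and 10.1% lower. The 2 lower were D17Wsu92e at −0.17 ± 0.05 (adjusted p = 0.00626) and Srpk1 at −0.20 ± 0.05 (adjusted p = 0.00236). Scube3 was also lower in STZ-cKOt than in PBS-cKOt, by −0.53 ± 0.11 (adjusted p = 0.00153), the treatment pair in which Ppard differed by −0.80. None of the 17 was called for the interaction.

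**Figure D5:**
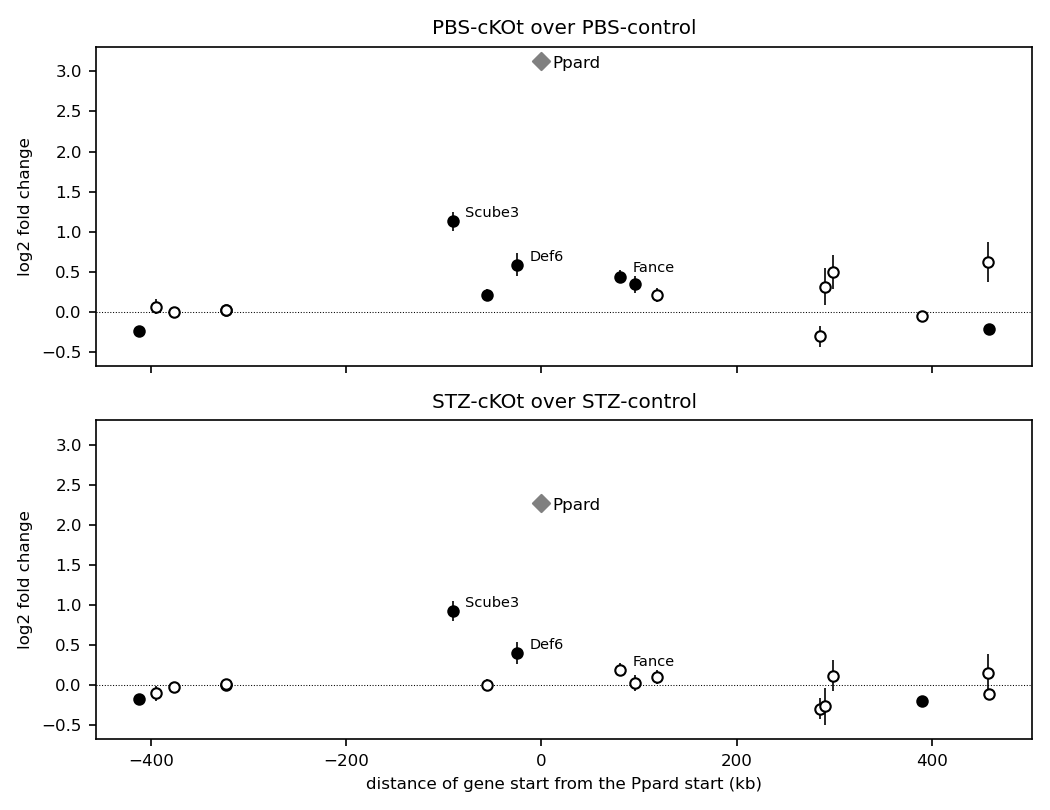
Log2 fold change ± SE (vertical axis) of the 17 tested genes that start within 500 kb of Ppard, against the distance of their start from that of Ppard in kb, for PBS-cKOt over PBS-control (top) and STZ-cKOt over STZ-control (bottom). Filled circles have an edgeR adjusted p under 0.05, and the grey diamond is Ppard at 3.12 and 2.27. Scube3, 90.6 kb before the Ppard start, is the highest neighbour in both panels at 1.13 and 0.93.

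Among genes of fatty acid use that PPARs are known to switch on, more fell than rose in cKOt kidneys, in which Ppard was high. Of 40 listed genes 37 were tested. In PBS-cKOt 13 were called lower and 3 higher than in PBS-control, with a list median of −0.13, where 12.5% of all genes were called lower and 10.9% higher. The strongest by adjusted p were the carnitine transporter gene Slc22a5 (−0.84 ± 0.08), the mitochondrial uncoupling gene Ucp2 (−1.27 ± 0.12), the acyl-CoA dehydrogenase gene Acadl (−0.70 ± 0.07) and the fatty acid binding protein gene Fabp3 (−0.79 ± 0.09). The 3 called higher were Acsl1 (0.87 ± 0.11), Acot2 (0.67 ± 0.10) and Pdk4 (0.83 ± 0.27). These were also called higher in STZ-cKOt than in STZ-control, at 0.81 ± 0.11, 0.46 ± 0.10 and 1.14 ± 0.28. In STZ-cKOt 14 were called lower and 5 higher than in STZ-control, with a median of −0.23, where 10.1% of all genes were called lower and 9.52% higher. Proximal tubule markers fell in part in the same comparisons, 4 of 10 lower and 0 higher in PBS mice and 5 lower and 1 higher in STZ mice, and their part in the result was not tested. For STZ in cKOt mice 3 of the 37 were higher and 7 lower (27.0%, where 11.6% of all genes were called), and for STZ in control mice 2 were higher and 3 lower (13.5%, near the 12.3% of all genes). Lpl, the lipase that releases fatty acids from lipoproteins, stood at −1.02 ± 0.19 in STZ-cKOt against PBS-cKOt (edgeR adjusted p = 0.000299).

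Of 37 other nuclear receptor genes, 6 were called higher and 7 lower in PBS-cKOt than in PBS-control, and 6 higher and 4 lower in STZ-cKOt than in STZ-control. These are 35.1% and 27.0% of the list, where 23.4% and 19.6% of all genes were called. Thra, the thyroid hormone receptor alpha gene, rose by 1.34 ± 0.07 in PBS mice (edgeR adjusted p = 4.28e-18) and 1.03 ± 0.07 in STZ mice, and like Ppard it was lower in STZ-cKOt than in PBS-cKOt (−0.33 ± 0.07, adjusted p = 0.000906). The REV-ERB genes Nr1d2 and Nr1d1, clock repressors, were lower by −2.29 ± 0.10 and −1.58 ± 0.16 in PBS mice. Pparg, the remaining PPAR and a fat cell regulator, was lower in STZ-control than in PBS-control (−0.74 ± 0.19, adjusted p = 0.00959) and in PBS-cKOt than in PBS-control (−0.76 ± 0.19, adjusted p = 0.00343). Fat tissue markers moved with it in the STZ pair, where 5 of 6 tested markers and 5.93% of all genes were called lower. The sum over the listed markers ran from 1.27 to 15.5 CPM in STZ-control and from 3.86 to 179 CPM in PBS-control. In the genotype pair 1 of 6 was lower, where 12.5% of all genes were, and the sum ran from 0.208 to 57.7 CPM in PBS-cKOt. The part of these markers in the Pparg results was not tested.

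Of 22 coregulator genes 2 were called higher and 1 lower in PBS-cKOt against PBS-control (13.6%, where 23.4% of all genes were called). In STZ-cKOt against STZ-control 2 were called higher and 3 lower (22.7%, where 19.6% were). The coactivator gene Ncoa3 stood at −0.33 ± 0.07 in PBS mice (edgeR adjusted p = 0.000315) and −0.27 ± 0.07 in STZ mice (adjusted p = 0.00304). Cited2 stood at 0.46 ± 0.11 in PBS mice and 0.52 ± 0.11 in STZ mice. In the CREB and CRTC pathway 2 of 17 were called in PBS mice, both lower (11.8%, where 23.4% of all genes were called). In STZ mice 1 of 17 was called, also lower (5.88%, where 19.6% of all genes were called). Sik1, a kinase that holds CRTC proteins in the cytoplasm, stood at −1.03 ± 0.12 in PBS mice (adjusted p = 2.75e-08) and −1.32 ± 0.13 in STZ mice. Of 13 other Kruppel-like factor genes 3 were lower in PBS-cKOt and 0 higher (23.1%, a share near that of all genes), led by Klf13 (−0.75 ± 0.09, adjusted p = 2.67e-08).

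Of 15 clock genes and their direct regulators 6 were higher and 7 lower in cKOt in PBS mice (86.7%, where 23.4% of all genes were called). Likewise 6 were higher and 7 lower in STZ mice (86.7%, where 19.6% of all genes were called). The 15 include Arntl, the floxed gene itself, counted over the whole gene, at 3.00 in PBS mice and 2.15 in STZ mice. The lists were led by Npas2, which stands in for CLOCK (5.55 ± 0.18 in PBS mice and 4.46 ± 0.17 in STZ mice).

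In the list of sirtuins and NAD supply 4 of 16 were lower and 1 higher in PBS-cKOt against PBS-control, and 5 lower and 0 higher in STZ-cKOt against STZ-control (31.3% in each, where 23.4% and 19.6% of all genes were called). Nampt, the rate-limiting enzyme of NAD salvage and thus of the cofactor of SIRT1, was lower in cKOt by −0.70 ± 0.08 in PBS mice (edgeR adjusted p = 1.15e-08) and −0.41 ± 0.08 in STZ mice (adjusted p = 0.000227). Nadk, the NAD kinase gene, was lower in all 4 comparisons, by −0.30 to −0.28. Of 14 mitochondrial biogenesis factors 1 was called in each genotype comparison (7.14%), the mitochondrial helicase gene Twnk, higher by 0.24 ± 0.04 in PBS and 0.19 ± 0.04 in STZ mice.

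Genes of the hepatocyte nuclear factor network of the proximal tubule fell with STZ in part, as Hnf4a did. In control mice 7 of 21 tested were lower with STZ and 0 higher, and in cKOt mice 5 were lower and 1 higher, where 5.93% and 5.63% of all genes were lower. More of the list was called between genotypes, where Hnf4a was not called. In PBS mice 3 were higher and 7 lower in cKOt (47.6%, where 23.4% of all genes were called). In STZ mice 6 were higher and 5 lower (52.4%, where 19.6% of all genes were called). Among them the phosphate transporter gene Slc17a3 stood at −0.42 ± 0.07 in control mice (edgeR adjusted p = 0.000143) and −0.43 ± 0.07 in cKOt mice (adjusted p = 0.000105). Markers of the proximal tubule moved with Hnf4a, with 3 of 10 lower and 0 higher in STZ-control against PBS-control and 3 lower and 1 higher in STZ-cKOt against PBS-cKOt. The marker list shares Slc34a1, Slc5a2 and Slc22a6 with the network list. The summed level of the markers is given next. It ran from 9667 to 12658 CPM in STZ-cKOt, from 10206 to 14151 CPM in PBS-cKOt, from 10761 to 13582 CPM in STZ-control and from 13425 to 15517 CPM in PBS-control. The part of these markers in the result was not tested.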

How the data were processed

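Kidney messenger RNA was sequenced by the authors from 36 mice, 1 library per animal, from 500 ng of total RNA with TruSeq Stranded mRNA reagents, per the labels' protocols. The deposited values are raw read counts per gene, not normalized. Per the submitters' processing notes the tools included HTSeq 0.9.1, STAR 2.5.3a and cutadapt 1.8, and the build was GRCm38. The sources used here give no annotation release, strand or counting options, and reads that map to more than 1 place, 30.9% to 42.8% per library, were not assigned to genes. The 5 closing entries for reads in no gene were left out of library sizes. Symbols, coordinates and exon lengths came from GENCODE M21.

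Counts were tested with edgeR 4.0.16 (quasi-likelihood F test, filterByExpr, TMM, R 4.3.3), with 1 mean per group in all 36 libraries, 32 residual degrees of freedom and Benjamini-Hochberg adjustment over 15637 genes, at a threshold of 0.05. Adjusted p-values in the text are from edgeR unless another tool is named. DESeq2 1.42.0 and limma 3.58.1 (voom with quality weights) were alternatives, 11 in all and 10 for the interaction. The fit was tested on simulated data. Groups came from the sample titles, and the labels name no batch. Over 144 same-group pairs the chi-square per gene of the counts was 5.85 or more, so no pair agreed within sampling noise. The members, lists and libraries left out were chosen with earlier results of these data known. Every member is named, with, per list and comparison, up to 4 called genes of smallest adjusted p. Also named are the 10 genes most like Ppard by group differences, the 5 by deviations, and the neighbours called between genotypes. Genes of fatty acid use called higher in PBS-cKOt than in PBS-control are named as well. The neighbour count covers genes that start within 500 kb.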

Additional observations from a re-analysis of the deposited data

Results flagged for a closer look

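In 40 sets of 9 libraries, 10 genes in 4 groups, the highest or lowest library stood apart from the rest in 3 by Dixon's test at the 95% level (gap over range above 0.493), and chance marks about 1 group in 20. Ppard in PBS-control replicate 1 was the lowest of its group at 9.34 CPM, with the next at 12.3 CPM. Ppargc1b in PBS-control replicate 7 was the highest at 9.93 CPM, with the next at 7.38 CPM. Sirt1 in STZ-cKOt replicate 1 was the highest at 40.7 CPM, with the next at 32.9 CPM. The length slopes of these libraries were 0.0865, 0.0898 and 0.0650, and their part was not tested.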

How the results depend on the processing

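Over all alternatives, 466 values of the 9 genes kept their side of the threshold, 10 passed it and 10 lost it, and no called value changed sign. Without the 4 libraries that stood apart, 1 of the 9 genes was called between genotypes in STZ mice in place of 4, 0 for STZ in control mice in place of 2, and 2 for STZ in cKOt mice in place of 1. With the length slope as a covariate 2 were called for STZ in cKOt mice. A fit to the groups compared alone gave 2 between genotypes in STZ mice, and no filter on low counts gave 1 for STZ in control mice. The cause was not tested. The interaction was called for 7 of all genes by edgeR, for 19 by DESeq2, 15 by limma voom and 4 with the length slope. Without the library labelled STZ-control 2 the counts of members were as in the full fit.

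The replicate numbers are shared between groups, but nothing in the labels pairs the animals. Same-numbered libraries had a mean correlation of deviations of 0.0284 (−0.247 to 0.396), and 6 of 36 libraries correlated best with their own number. With the number as a replicate block, 4 of the 9 were called between genotypes in PBS mice, 5 in STZ mice, 3 for STZ in control mice, 1 in cKOt mice and 0 for the interaction. Counts limit Ppargc1b most, with as few as 48 reads in a library.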

Other observations

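Deviations of each library from its group mean show which genes varied with Ppard between mice of 1 group. Over 36 libraries and 13808 genes the highest correlations of these deviations with Ppard, on log2 CPM, were those of Stat5a (Pearson's r 0.82, Spearman's rho 0.73), a transcription factor of cytokine and growth hormone signalling, Inava (0.78 and 0.80), 1700017B05Rik (0.77 and 0.75), the repressor gene Bcl6 (0.73 and 0.68) and Bcl7a (0.72 and 0.68). In PBS-cKOt against PBS-control Stat5a, Inava, 1700017B05Rik, Bcl6 and Bcl7a differed by 0.56, 1.02, 0.92, 0.45 and 0.17, and in STZ-cKOt against PBS-cKOt by −0.41, −0.42, −0.37, −0.48 and −0.40. Of the other 9 regulators Hnf4a had the highest value with Ppard, r 0.45, and Ppargc1a the lowest, r −0.30. The points share their library and its depth, the genes were picked as extremes, and no test is given.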
